A study of Mus musculus with 10 samples.

Results

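The genes described here were 34 regulators and targets of the cellular response to low oxygen, chosen by symbol from a written list that includes *Higd1a*. All 34 were found among the 55401 genes of the count table, and all 34 were among the 17464 genes that held enough counts to be tested. They were compared between 5 liraglutide-treated and 5 vehicle-treated tumors, and then from tumor to tumor.

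The tumors were grown from KPN1.1 cells, a mouse lung adenocarcinoma line that both groups share. The hosts in both groups were male C57BL/6J mice with diet-induced obesity from chow with 60% of its calories from fat. Each mouse was 7 to 17 weeks old when it received 75000 cells under the skin of the flank. Liraglutide, an agonist of the receptor for glucagon-like peptide-1 (GLP-1RA), was injected into the peritoneum each day at 0.2 μg per gram of body weight once a tumor could be felt, and control mice were injected with the vehicle, PBS, on the same schedule. Tumors were taken on days 19 to 22 after injection, or at 2000 mm3 per the labels, and RNA came from 1 frozen fragment per tumor. The tumors stem from a single cell line under the skin, not in the lung, and tumor size and the time since the last dose were not used here. The study reported smaller tumors and more loss of body weight in obese mice given liraglutide than in their controls. The part of either in the gene values was not tested. The comparison asks how gene expression differs with treatment in tumors of obese hosts.

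Cells sense oxygen through the hypoxia-inducible factors (HIFs), paired transcription factors whose alpha subunits are encoded by *Hif1a* and *Epas1*. When oxygen is plentiful, prolyl hydroxylases of the Egln family mark the alpha subunits, and the protein encoded by *Vhl* then sends them for degradation. When oxygen is scarce the alpha subunits persist, pair with the partner encoded by *Arnt*, and bind promoters with the core letters ACGTG or GCGTG, raising genes for glucose use, mitophagy, pH control, vessel growth and collagen modification. The control of the alpha subunits acts mainly on protein, which RNA does not show.

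Total counts were 9927942 to 14480593 per vehicle tumor and 10336934 to 13105261 per liraglutide tumor, and 3 counts corresponded to between 0.207 and 0.315 CPM (read counts scaled to a common library size). This floor covers counting error alone. Of the 34 genes, 30 had a mean above 10 CPM in both groups, and the smallest count of any member was 2, for *Ppp1r3c* in liraglutide tumor 1. Keratins of simple epithelium (*Krt8*, *Krt18*, *Krt19*) and *Cdh1* were abundant in every tumor, as the epithelial label implies, while *Epcam*, another epithelial marker, lay between 0.163 and 4.63 CPM. Of the lung markers, *Sftpb* lay between 65.1 and 530 CPM, *Nkx2-1* between 17.7 and 132 CPM, and *Sftpc* and *Napsa* at no more than 5.96 and 2.55 CPM.

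Most hypoxia genes were lower in liraglutide-treated tumors, but no gene in the table passed the test across all genes. The difference was negative for 28 of the 34 genes (82.4%), against 52.6% of all genes tested. At an unadjusted p under 0.05 by edgeR's quasi-likelihood test, 10 of the 34 were lower (29.4%), against 5.62% of all genes tested, and 0 were higher, against 3.97%. The 10 were *Higd1a*, *Bnip3*, *Fam162a*, *Hif1a*, *Egln3*, *Slc2a1*, *Hilpda*, *Plod2*, *Ero1a* and *Ndrg1*. The median log2 fold change, liraglutide over vehicle, was -0.38 over the 34 genes and -0.017 over all genes tested. Single values ran from -1.11 for *Plod2* to 0.56 for *Epas1*, with an SD of 0.40 between genes.

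**Figure D1:**
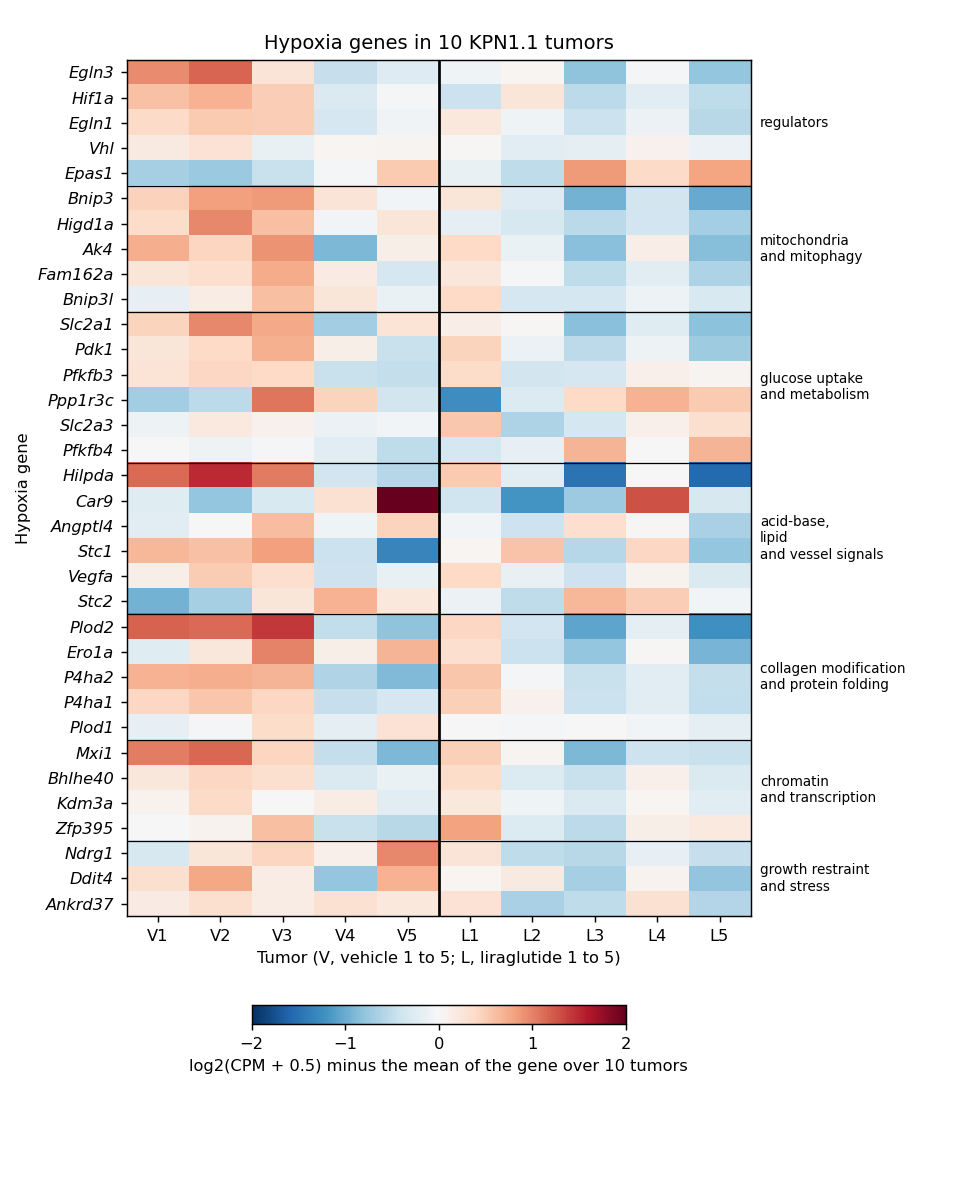
Level of each of the 34 hypoxia genes (rows, grouped by role) in each tumor (columns; V1 to V5, vehicle; L1 to L5, liraglutide), as log2(CPM + 0.5) minus the mean of that gene over the 10 tumors. Red cells crowd into vehicle tumors 1 to 3 and blue cells into liraglutide tumors 3 and 5, while *Epas1*, *Pfkfb4*, *Stc2* and *Car9* show other patterns.

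After Benjamini-Hochberg adjustment over all 17464 genes, edgeR called 0 of the 34 genes and 0 genes in all (0%), with a smallest adjusted p of 0.482. The alternative test, DESeq2, called 52 of the 3796 genes for which it gave an adjusted p (1.37%), among them *Higd1a* as the 1 member. The 5 liraglutide tumors all lay below the 5 vehicle tumors for *Higd1a* alone, 2.94% of the members against 0.888% of all genes tested. No member had all liraglutide tumors above, against 0.607%. The study of these same tumors had already linked liraglutide to reduced *Higd1a*, so its place among the members is no independent support. The count of 10 lower genes depended on single tumors. It was 3 without liraglutide tumor 3 and 3 without liraglutide tumor 5, and 4 without vehicle tumor 3. Without vehicle tumor 2 it was 5, without vehicle tumor 1 or liraglutide tumor 2 it was 6, and without liraglutide tumor 1 it was 14. The 5.62% belongs to all 10 tumors, and no such share is given for fits with a tumor left out. *Higd1a*, *Bnip3* and *Hif1a* stayed under the threshold whichever tumor was left out. In a piece of whole tumor, fewer cells of a type and less RNA per cell cannot be told apart, and this holds for each difference that follows. A p-value here sets the difference between the groups against the spread between the tumors sequenced.

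**Figure D2:**
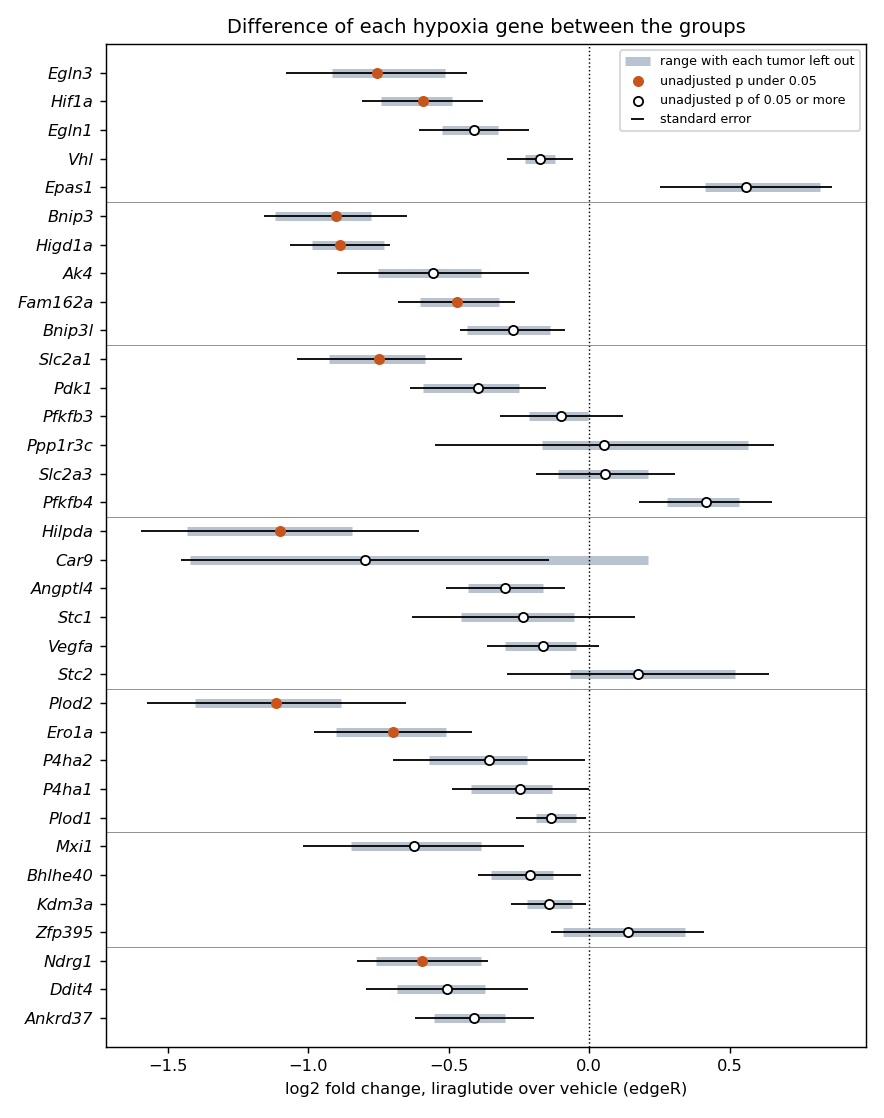
Log2 fold change, liraglutide over vehicle, of each hypoxia gene by edgeR (x axis; points, with the standard error as a line), with the range over the fits that leave out 1 tumor as a gray bar. Orange points, the 10 genes with an unadjusted p under 0.05, all lie left of 0, and the gray bar of *Car9* crosses 0.

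Among the regulators, *Hif1a* and *Egln3* RNA was lower in liraglutide-treated tumors and *Epas1* RNA was the 1 regulator with a higher mean. Of the 5 regulators, 4 had a negative and 1 a positive difference, against 52.6% negative among all genes tested. Their median log2 fold change was -0.41, and 2 were lower at an unadjusted p under 0.05 (5.62% of all genes tested).

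*Hif1a*, the alpha subunit that drives most of the acute response, was at 513, 556, 482, 279 and 333 CPM in vehicle tumors 1 to 5 and at 253, 405, 237, 296 and 242 CPM in liraglutide tumors 1 to 5. Vehicle tumors 1 to 3 lay above every other tumor, whereas vehicle tumors 4 and 5 fell within the liraglutide range. The mean was 432 ± 120 CPM in vehicle and 287 ± 70.4 CPM in liraglutide tumors (SD, n = 5 each), a log2 fold change of -0.59 (SE 0.21). The unadjusted edgeR p was 0.0181, the adjusted p from edgeR 0.482, and the two-sided exact permutation p 0.0635. Its exons shared 695 bases with Gm15283, a noncoding gene on the other strand at a mean of 12.7 CPM.

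*Epas1*, which encodes the HIF-2 alpha subunit and is abundant in endothelium, ran the other way. The vehicle tumors held 66.7, 63.3, 77.5, 104 and 153 CPM, and the liraglutide tumors 95.5, 74.8, 191, 139 and 183 CPM. Liraglutide tumors 3 and 5 were higher than every vehicle tumor, the other 3 overlapped them, and vehicle tumor 5 was the highest of its group. Means were 92.8 ± 37.1 and 137 ± 51.5 CPM (SD, n = 5 each). A log2 fold change of 0.56 (SE 0.31) came with an unadjusted edgeR p of 0.0957 and a two-sided exact permutation p of 0.159. It ranged from 0.41 to 0.82 as single tumors were left out, and the unadjusted edgeR p was 0.0161 without vehicle tumor 5 and 0.0302 without liraglutide tumor 2. The lung lineage factor *Nkx2-1*, a marker of the tumor cells, was lowest in vehicle tumors 1 to 3 (17.7 to 26.6 CPM), against 66.6 and 95.4 CPM in the other vehicle tumors and 52.2 to 132 CPM in the liraglutide tumors. The summed level of 6 endothelial markers was 91.5 to 148 CPM in vehicle and 93.6 to 120 CPM in liraglutide tumors. The part of either in the *Epas1* values was not tested.

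*Egln3*, a prolyl hydroxylase that HIF itself induces, was at 320, 373, 197, 120 and 138 CPM in the vehicle tumors and at 155, 169, 94.8, 163 and 96.6 CPM in the liraglutide tumors. Vehicle tumors 1 and 2 stood above all the others, and vehicle tumors 4 and 5 lay inside the liraglutide range. With means of 230 ± 112 and 136 ± 37.0 CPM (SD, n = 5 each), the log2 fold change was -0.76 (SE 0.32). The unadjusted edgeR p was 0.0377, or 0.116 without vehicle tumor 2, and the two-sided exact permutation p was 0.119.

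*Egln1*, the main oxygen sensor among the hydroxylases, was at 169, 186, 182, 102 and 123 CPM in vehicle and at 149, 122, 95.7, 119 and 88.3 CPM in liraglutide tumors. Vehicle tumors 1 to 3 were again the highest of the 10. The log2 fold change of -0.41 (SE 0.19) had an unadjusted edgeR p of 0.0587. *Vhl*, whose product marks the alpha subunits for degradation, was at 23.6, 25.5, 18.6, 21.3 and 21.6 CPM in vehicle and 21.1, 17.7, 18.1, 22.01 and 18.98 CPM in liraglutide tumors. Its log2 fold change was -0.18 (SE 0.12), and the groups overlapped.

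All 5 genes of mitochondria and mitophagy had a negative difference (52.6% of all genes tested did), 3 of them at an unadjusted p under 0.05 (5.62% of all genes tested), with a median log2 fold change of -0.56. This group held *Higd1a* and *Bnip3*, the 2 of 34 members lower at a two-sided exact permutation p under 0.05, a share near the 4.88% of all genes tested, while 0 members were higher, against 3.62%.

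*Higd1a* encodes a small protein of the inner mitochondrial membrane with a hypoxia-induced domain, which associates with the respiratory chain. Its level was 80.5, 121, 94.7, 59.8 and 73.3 CPM in vehicle tumors 1 to 5, and 53.9, 49.6, 42.6, 47.4 and 38.7 CPM in liraglutide tumors 1 to 5. Every liraglutide tumor was below every vehicle tumor, with a gap between liraglutide tumor 1 and vehicle tumor 4, and the liraglutide tumors were also closer to each other. Vehicle tumors averaged 85.9 ± 23.5 CPM and liraglutide tumors 46.5 ± 5.94 CPM (SD, n = 5 each), so the vehicle level was 1.85-fold higher. The log2 fold change was -0.89 (SE 0.18), and it stayed between -0.99 and -0.73 as each tumor was left out in turn. The unadjusted edgeR p was 0.000395 and was at most 0.00143 without any 1 tumor. The two-sided exact permutation p was 0.00794, the smallest that 5 tumors against 5 can give. *Higd1a* was listed with its reduction in these tumors already reported, so these values are no independent test. The adjusted p was 0.482 with edgeR and 0.0106 with DESeq2, and over all alternatives it ran from 0.0106 to 0.900.

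Other genes with the HIG domain were scarcer or had a positive difference. *Higd2a*, a related factor for respiratory chain assembly, had a log2 fold change of 0.26 (unadjusted edgeR p 0.0903), *Higd1b* fell below the filter on low counts, and *Higd1c* had 0 counts in every tumor. The antisense gene that shares 683 exon bases with *Higd1a*, Gm47112, was at a mean of 0.271 CPM.

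*Bnip3*, a mitochondrial outer membrane protein that marks the organelle for mitophagy, was at 106, 136, 139, 91.5 and 74.0 CPM in vehicle tumors and at 90.9, 64.2, 39.8, 59.3 and 38.0 CPM in liraglutide tumors. Liraglutide tumor 1 reached the level of vehicle tumor 4, and the other 4 liraglutide tumors lay below all vehicle tumors. Means of 109 ± 28.2 and 58.4 ± 21.5 CPM (SD, n = 5 each) gave a log2 fold change of -0.90 (SE 0.26), which ranged from -1.12 to -0.78 with tumors left out. The unadjusted edgeR p was 0.00457 and did not exceed 0.0131 without any 1 tumor, and the two-sided exact permutation p was 0.0159. The adjusted p was 0.482 with edgeR and 0.0610 with DESeq2.

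*Fam162a*, a mitochondrial protein tied to hypoxia-induced cell death, was at 80.6, 85.8, 114, 76.5 and 53.9 CPM in vehicle and at 79.9, 66.0, 47.8, 58.8 and 44.0 CPM in liraglutide tumors. Vehicle tumors 4 and 5 lay within the liraglutide range, and liraglutide tumors 1, 2 and 4 within the vehicle range. Its log2 fold change was -0.47 (SE 0.21, unadjusted edgeR p 0.0445), and the p was 0.05 or more in 7 of the 10 fits that left out a tumor. Its exons overlapped those of *Wdr5b* and *Mix23* on the other strand. *Bnip3l*, the relative of *Bnip3* that also clears mitochondria, had a log2 fold change of -0.27 (unadjusted p 0.171), and *Ak4*, a mitochondrial adenylate kinase, one of -0.56 (unadjusted p 0.132), both by edgeR.

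**Figure D3:**
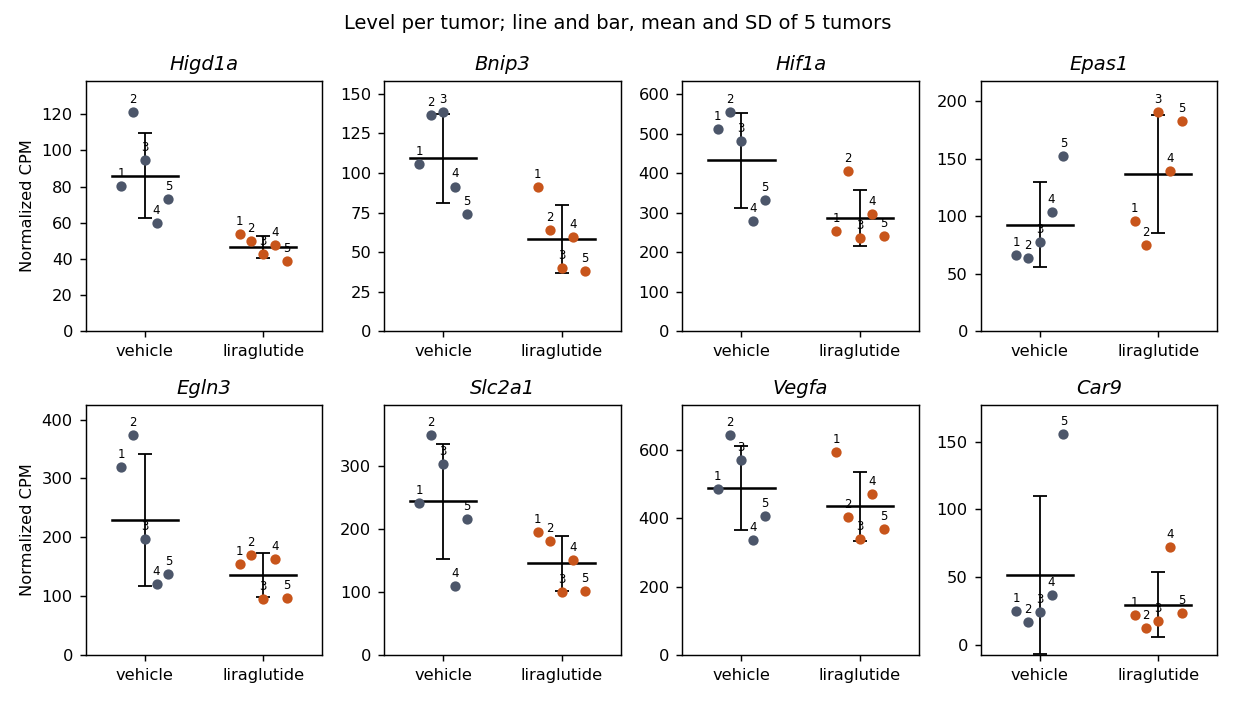
Level per tumor (y axis, CPM on the normalized library size) of 8 hypoxia genes in the vehicle and liraglutide groups; points are tumors with their number, lines are means and bars the SD of 5 tumors. The groups are separate for *Higd1a* alone, liraglutide tumor 1 reaches into the vehicle range for *Bnip3*, and vehicle tumor 5 stands far above the rest for *Car9*.

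The promoters of these genes are shown because the members share a sequence feature that their choice did not use directly. The 250 bases before the start of transcription in RefSeq (GRCm38.p6) are printed 5′ to 3′ on the strand of the gene, with each ACGTG or GCGTG, or the same letters read on the other strand (CACGT or CACGC), in capitals. *Higd1a*, *Bnip3*, *Slc2a1* and *Car9* stand for the members discussed most, and *Vhl* is the 1 gene with no match in its window. The windows are chr9:121857797-121858046 (minus strand) for *Higd1a*, chr7:138909507-138909756 (minus strand) for *Bnip3*, chr4:119108495-119108744 (plus strand) for *Slc2a1*, chr4:43506776-43507025 (plus strand) for *Car9* and chr6:113623744-113623993 (plus strand) for *Vhl*.
Higd1a: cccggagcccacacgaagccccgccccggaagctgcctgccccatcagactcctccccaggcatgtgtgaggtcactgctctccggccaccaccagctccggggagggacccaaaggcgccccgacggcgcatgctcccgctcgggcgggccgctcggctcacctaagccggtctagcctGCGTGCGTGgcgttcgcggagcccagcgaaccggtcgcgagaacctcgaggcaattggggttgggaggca
Bnip3: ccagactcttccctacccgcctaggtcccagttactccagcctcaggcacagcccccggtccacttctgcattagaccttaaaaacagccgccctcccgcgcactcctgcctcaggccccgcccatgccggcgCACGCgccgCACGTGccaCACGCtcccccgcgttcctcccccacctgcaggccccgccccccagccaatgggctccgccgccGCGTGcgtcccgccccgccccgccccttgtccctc
Slc2a1: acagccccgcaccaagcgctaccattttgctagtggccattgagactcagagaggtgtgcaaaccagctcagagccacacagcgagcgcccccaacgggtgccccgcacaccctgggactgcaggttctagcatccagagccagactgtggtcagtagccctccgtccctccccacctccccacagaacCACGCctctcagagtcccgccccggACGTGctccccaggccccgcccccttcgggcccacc
Car9: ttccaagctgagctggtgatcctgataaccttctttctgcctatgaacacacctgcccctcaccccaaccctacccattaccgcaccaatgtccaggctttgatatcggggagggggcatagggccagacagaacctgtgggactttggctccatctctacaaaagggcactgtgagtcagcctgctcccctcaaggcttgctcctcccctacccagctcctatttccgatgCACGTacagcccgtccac
Vhl: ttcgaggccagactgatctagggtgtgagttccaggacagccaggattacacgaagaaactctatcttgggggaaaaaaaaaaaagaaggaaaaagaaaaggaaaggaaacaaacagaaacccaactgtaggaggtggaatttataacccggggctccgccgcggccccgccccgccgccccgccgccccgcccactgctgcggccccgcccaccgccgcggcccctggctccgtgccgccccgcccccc

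The *Higd1a* window held 2 matches, the nearer of them 66 bases before the start, in the run GCGTGCGTG. *Bnip3* held 5, the nearest 35 bases before the start, and they included the palindrome CACGTG, which gives a match on each strand. *Slc2a1* held 2, the nearest at 36 bases, and *Car9* held 1, at 18 bases. RefSeq promoters were matched for 25 of the 34 genes, and *Angptl4*, *Bhlhe40*, *Bnip3l*, *Epas1*, *Ndrg1*, *Plod2*, *Slc2a3*, *Stc1* and *Zfp395* were not matched. Of the 25 genes, 24 (96.0%) had a match in at least 1 window, against 58.9% of the 11003 tested genes with a promoter and 41.5% of all 27025 genes with one. By window the shares were 29 of 36 (80.6%), 53.1% and 38.6%. The palindrome CACGTG, which overlaps ACGTG, was in 13.9% of the members' windows, 7.84% of those of tested genes and 6.02% of all windows. The members' windows were also richer in G and C, at a median of 64.4% against 58.8% for tested genes and 52.4% for all. A match was found in 8 of 8 genes past the unadjusted threshold and in 16 of the 17 others, so nearly all had one. CACGTG was in 22.2% of the 9 windows of the former and 11.1% of the 27 windows of the latter. A match is a description of letters, and binding was not measured.

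In the glucose group, the transporter *Slc2a1* was lower with liraglutide and the rest showed no common direction. Of the 6 genes, 3 had a negative and 3 a positive difference, against 52.6% negative among all genes tested. Only 1 was lower at an unadjusted p under 0.05 (5.62% of all genes tested). The median log2 fold change was -0.022, close to that of all genes tested. *Slc2a1*, which encodes the glucose transporter GLUT1, was at 241, 348, 302, 110 and 216 CPM in vehicle and at 194, 180, 99.1, 151 and 101 CPM in liraglutide tumors. Vehicle tumor 4 lay among the lowest liraglutide tumors, and the other 4 vehicle tumors were above all liraglutide tumors. Means were 243 ± 90.8 and 145 ± 44.2 CPM (SD, n = 5 each). The log2 fold change was -0.75 (SE 0.29) and the two-sided exact permutation p 0.0873. The unadjusted edgeR p was 0.0274, and it was 0.05 or more in 4 of 10 fits with a tumor left out.

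*Slc2a3*, the high-affinity transporter GLUT3, was scarce, at 4.04 ± 0.427 CPM in vehicle and 4.20 ± 1.48 CPM in liraglutide tumors (SD, n = 5 each), and its direction turned when liraglutide tumor 1 (log2 fold change -0.11) or 5 (-0.022) was left out. *Pdk1*, the kinase that keeps pyruvate out of the citric acid cycle, had a log2 fold change of -0.40 (unadjusted edgeR p 0.132). The enzymes that set fructose 2,6-bisphosphate, a driver of glycolysis, differed in sign, with -0.10 for *Pfkfb3* and 0.41 for *Pfkfb4* (unadjusted edgeR p 0.659 and 0.107, the latter 0.0397 without liraglutide tumor 1). *Pfkfb4* was at 8.91, 8.31, 8.82, 7.61 and 6.11 CPM in vehicle and at 6.91, 7.92, 14.6, 8.88 and 14.7 CPM in liraglutide tumors, so its higher mean came from liraglutide tumors 3 and 5. *Ppp1r3c*, which targets a phosphatase to glycogen, averaged 1.27 CPM in vehicle and 1.29 CPM in liraglutide tumors, close to the floor. Its log2 fold change of 0.054 turned negative, between -0.17 and -0.031, without any 1 of 6 tumors (vehicle 1, 2 and 5, liraglutide 3, 4 and 5).

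The genes of acid-base balance, lipid and vessel signals had 5 negative differences and 1 positive, against 52.6% negative among all genes tested. Their median log2 fold change was -0.27, and 1 of 6 was lower at an unadjusted p under 0.05 (5.62% of all genes tested). *Hilpda*, a lipid droplet protein that blocks fat breakdown, was at 92.2, 119, 86.7, 32.0 and 27.9 CPM in vehicle and at 60.6, 35.6, 14.7, 41.8 and 13.9 CPM in liraglutide tumors. Vehicle tumors 1 to 3 were the highest of the 10, and vehicle tumors 4 and 5 lay inside the liraglutide range. Its log2 fold change was -1.10 (SE 0.49), and the two-sided exact permutation p was 0.111. The unadjusted edgeR p was 0.0474, and it was 0.05 or more in 7 of 10 fits with a tumor left out.

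*Vegfa*, the main growth signal for blood vessels, was the most abundant member per exon length. Its level was 486, 643, 570, 336 and 406 CPM in vehicle tumors and 593, 405, 339, 472 and 369 CPM in liraglutide tumors. Vehicle tumor 2 was highest and vehicle tumor 4 lowest, so the vehicle range enclosed the liraglutide range. Means of 488 ± 123 and 436 ± 101 CPM (SD, n = 5 each) gave a log2 fold change of -0.16 (SE 0.20; unadjusted edgeR p 0.425).

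*Car9*, a membrane carbonic anhydrase that exports acid and is widely used as a marker of hypoxic tumor areas, rested on a single tumor. The vehicle tumors held 25.0, 17.1, 24.0, 36.7 and 155 CPM, and the liraglutide tumors 22.5, 12.7, 17.8, 72.3 and 23.7 CPM. Vehicle tumor 5 and liraglutide tumor 4 stood well above the others of their groups, and the remaining 8 tumors lay between 12.7 and 36.7 CPM in both groups. *Car9* had a log2 fold change of -0.80 (SE 0.65; unadjusted edgeR p 0.247), and it turned to 0.21 without vehicle tumor 5. Vehicle tumor 5, the highest for *Car9*, was the lowest of all tumors for *Stc1*, at 20.04 CPM.

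*Angptl4*, an inhibitor of lipoprotein lipase, had a log2 fold change of -0.30 (unadjusted edgeR p 0.185). The stanniocalcins, secreted glycoproteins induced by stress, were at -0.23 for *Stc1* and 0.17 for *Stc2* (unadjusted edgeR p 0.567 and 0.716). *Stc2* was close to the floor, at 1.30 ± 0.789 CPM in vehicle and 1.46 ± 0.642 CPM in liraglutide tumors (SD, n = 5 each), and its sign turned without vehicle tumor 1 (-0.067) or liraglutide tumor 3 (-0.044).

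All 5 genes of collagen modification and protein folding had a negative difference, 2 of them at an unadjusted p under 0.05, against 52.6% and 5.62% of all genes tested, with a median log2 fold change of -0.36. *Plod2*, a lysyl hydroxylase that shapes collagen cross-links, showed the largest difference of the 34 genes but also a wide spread. Its level was 171, 164, 201, 52.9 and 42.4 CPM in vehicle tumors and 100, 57.5, 35.9, 66.0 and 31.6 CPM in liraglutide tumors. Vehicle tumors 1 to 3 were above all other tumors, and vehicle tumors 4 and 5 lay among the liraglutide tumors. The log2 fold change of -1.11 (SE 0.46) had a two-sided exact permutation p of 0.111. Its unadjusted edgeR p was 0.0337, and it was 0.05 or more in 6 of 10 fits with a tumor left out.

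*Ero1a*, the oxidase that supplies disulfide bonds in the endoplasmic reticulum, was at 295, 409, 698, 381 and 563 CPM in vehicle tumors and at 441, 261, 204, 355 and 184 CPM in liraglutide tumors. Vehicle tumors 3 and 5 were above every liraglutide tumor, and the other 3 vehicle tumors overlapped with them. With means of 469 ± 160 and 289 ± 108 CPM (SD, n = 5 each), its log2 fold change was -0.70 (SE 0.28). The unadjusted edgeR p was 0.0308, and it was 0.05 or more in 5 of 10 fits with a tumor left out. The two-sided exact permutation p was 0.0714. The collagen prolyl hydroxylases *P4ha1* and *P4ha2* had log2 fold changes of -0.24 and -0.36, and the lysyl hydroxylase *Plod1* had -0.13, with unadjusted edgeR p-values of 0.336, 0.319 and 0.303.

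The chromatin and transcription group had 3 negative differences and 1 positive, against 52.6% negative among all genes tested. Its median log2 fold change was -0.18. Lower or higher at an unadjusted p under 0.05 were 0 of 4, against 5.62% and 3.97% of all genes tested. *Mxi1*, an antagonist of Myc, was at -0.63 (unadjusted edgeR p 0.140), with vehicle tumors ranging from 39.7 to 165 CPM and liraglutide tumors from 39.7 to 104 CPM. The repressor *Bhlhe40* was at -0.21, the histone demethylase *Kdm3a* at -0.14 and the zinc finger gene *Zfp395* at 0.14. *Zfp395* turned to -0.092 without liraglutide tumor 1.

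All 3 genes of growth restraint and stress had a negative difference, as did 52.6% of all genes tested. Their median log2 fold change was -0.51, and 1 was lower at an unadjusted p under 0.05 (5.62% of all genes tested). *Ndrg1*, a stress-induced gene that restrains growth and spread, was at 223, 329, 373, 300 and 539 CPM in vehicle tumors 1 to 5 and at 334, 196, 189, 249 and 202 CPM in liraglutide tumors 1 to 5. Vehicle tumors 3 and 5 were above every liraglutide tumor, vehicle tumors 1, 2 and 4 lay within the liraglutide range, and liraglutide tumors 1 and 4 within the vehicle range. Means were 353 ± 118 and 234 ± 60.8 CPM (SD, n = 5 each). Its log2 fold change was -0.59 (SE 0.23), the unadjusted edgeR p 0.0266, or 0.0787 without vehicle tumor 5, and the two-sided exact permutation p 0.0635.

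*Ankrd37*, an ankyrin repeat gene induced by HIF, had the tightest vehicle group relative to its mean, at 18.5, 20.7, 18.4, 20.6 and 19.3 CPM. The liraglutide tumors split, with 10.4, 11.5 and 10.8 CPM in tumors 2, 3 and 5, and 20.3 and 20.5 CPM in tumors 1 and 4, which matched the vehicle level. For *Ankrd37* the log2 fold change was -0.41 (SE 0.21; unadjusted edgeR p 0.0794). Its exons shared 1156 bases with *Ufsp2* on the other strand, at a mean of 34.6 CPM, above its own level. *Ddit4*, an inhibitor of the growth kinase mTORC1, was at -0.51 (unadjusted edgeR p 0.107), with vehicle tumors from 29.0 to 85.9 CPM and liraglutide tumors from 28.7 to 56.9 CPM.

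Compared per kilobase of exon, the members spanned a wide range of levels. *Vegfa* was highest, with a mean over the 10 tumors of 107 CPM per kilobase, followed by *Ero1a* at 71.2 and *Egln3* at 68.0, while *Hif1a* was at 43.1. *Higd1a* stood in place 17 of 34 with 18.8 CPM per kilobase, next to *Fam162a* at 18.9 and *Pdk1* at 18.6, which its spread between tumors does not separate from it. *Slc2a3* at 0.550, *Ppp1r3c* at 0.381 and *Stc2* at 0.237 were lowest.

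The members also differed among tumors of the same treatment. Each gene was standardized on its log2 CPM over the 10 tumors, and the 34 values were averaged per tumor. The mean was 0.34, 0.78, 0.88, -0.32 and -0.10 SD units in vehicle tumors 1 to 5, and 0.37, -0.48, -0.77, 0.052 and -0.76 in liraglutide tumors 1 to 5. Vehicle tumors 2 and 3 were highest, liraglutide tumors 3 and 5 lowest, and liraglutide tumor 1 lay above 3 of the vehicle tumors. *Cdh1*, an epithelial adhesion gene, was at 560 to 814 CPM in vehicle tumors 1 to 3, the lowest of the 10. The other tumors held 966 to 2236 CPM. *Krt18* and *Epcam* did not follow it, being highest of the 10 in vehicle tumors 3 (1999 CPM) and 1 (4.63 CPM), respectively. The sum of the 9 epithelial markers was 4690, 5355 and 7484 CPM in vehicle tumors 1 to 3 and 5036 to 10248 CPM in the others. The leukocyte gene *Ptprc* was at 31.7 to 40.9 CPM in vehicle tumors 1 to 3, 76.98 and 70.54 CPM in vehicle tumors 4 and 5, and 37.2 to 74.8 CPM with liraglutide. Another leukocyte gene, *Csf1r*, did not split the vehicle tumors in this way, at 48.2 CPM in tumor 3 and 42.4 CPM in tumor 5. The part of tumor make-up in the hypoxia genes was not tested. Group means of the standardized level were 0.32 ± 0.53 and -0.32 ± 0.51 (SD, n = 5 each), given as a description without a test. Vehicle tumor 2 held the highest value of the 10 tumors for 16 of the 34 genes and vehicle tumor 3 for 11, against 14.2% and 10.4% of all genes tested. Liraglutide tumor 5 held the lowest value for 12 genes and liraglutide tumor 3 for 7, against 10.8% and 9.13% of all genes tested. Within the liraglutide group, tumor 1 was highest for 22 of the 34 genes, against 18.6% of all genes tested.

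Red cell transcripts differed in the same direction. Of 5 erythroid markers, 4 were lower with liraglutide at an unadjusted p under 0.05 by edgeR, against 5.62% of all genes tested. All 4 were hemoglobin chains, and *Alas2* did not reach that threshold (log2 fold change -0.13, unadjusted edgeR p 0.555). The 4 hemoglobin genes together were at 55.0, 37.0, 42.3, 10.2 and 44.7 CPM in vehicle tumors and at 17.9, 6.12, 6.22, 13.5 and 3.57 CPM in liraglutide tumors. Vehicle tumor 4 lay within the liraglutide range and the other 4 vehicle tumors above it. Tumor 4 was the lowest vehicle tumor in both measures, and liraglutide tumors 1 and 4 were the highest of their group in both. The order differed for vehicle tumor 5, low in the hypoxia genes and high in hemoglobin, and for vehicle tumor 2, high in the hypoxia genes and next to lowest of its group in hemoglobin. The sum of all 5 erythroid markers was 26.9 to 74.1 CPM in vehicle and 15.6 to 33.5 CPM in liraglutide tumors. The amount of blood in the fragments and its part in the hypoxia genes were not tested.

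**Figure D4:**
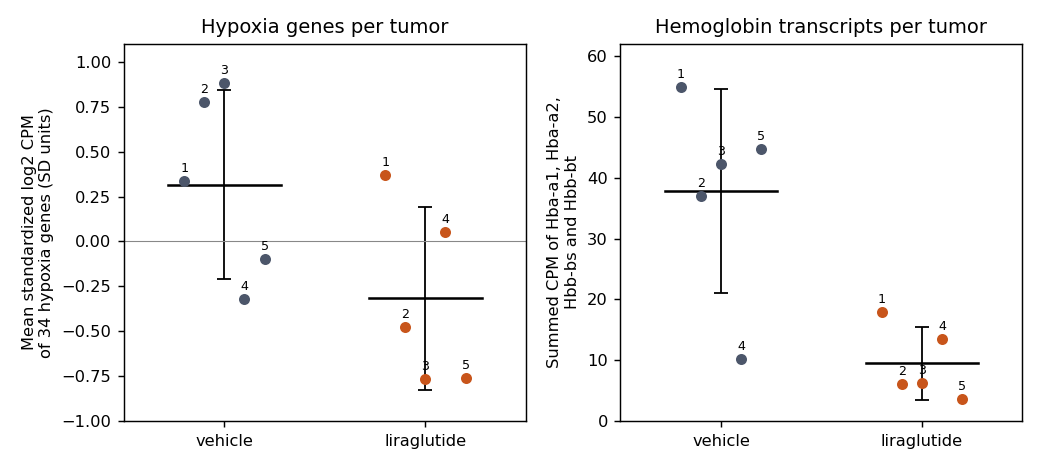
Left, mean standardized log2 CPM of the 34 hypoxia genes (y axis, SD units) per tumor; right, summed CPM of the hemoglobin genes *Hba-a1*, *Hba-a2*, *Hbb-bs* and *Hbb-bt* (y axis) per tumor. Points are tumors with their number, lines means and bars the SD of 5 tumors; in both panels vehicle tumor 4 lies within the range of the liraglutide group.

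Other cells in the fragments also varied. The counts below stand beside 3.97% of all genes tested that were higher with liraglutide at an unadjusted p under 0.05 by edgeR. Of 5 keratinocyte markers, 4 passed the filter and 3 were higher at that threshold. Keratinocyte sums were 8.36 to 18.5 CPM in vehicle and 6.82 to 215 CPM in liraglutide tumors, where tumors 2, 4 and 5 were high. *Krt5* and *Krt1* were at 0 in liraglutide tumors 1 and 3. Of 5 skeletal muscle markers, 1 was higher at an unadjusted p under 0.05, and sums were 33.0 to 233 CPM and 77.1 to 324 CPM. Of 9 markers of tumor epithelium, 1 was higher (*Nkx2-1*), and sums were 4690 to 10248 CPM and 5036 to 7451 CPM. Of 5 fibroblast markers, 1 was higher (*Pdgfrb*), and sums were 846 to 2029 CPM and 1155 to 2249 CPM. Of 6 leukocyte, 4 neutrophil, 6 endothelial and 5 adipocyte markers, those tested had an unadjusted edgeR p of 0.05 or more, and *Ms4a1*, *Ly6g*, *Plin1* and *Lep* were too low to test. Their sums were 89.4 to 175 and 104 to 203 CPM for leukocytes, 4.77 to 11.5 and 4.92 to 11.3 CPM for neutrophils, and 15.3 to 83.1 and 18.3 to 47.5 CPM for adipocytes, with *Ly6g* at 0 in every tumor. The part of these cells in the hypoxia genes was not tested.

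Other genes of the pathway were taken from written lists. Of 33 further HIF targets, 32 were tested, 29 had a negative difference (52.6% of all genes tested did), and the median log2 fold change was -0.41. At an unadjusted p under 0.05 by edgeR, 13 were lower and 0 higher, against 5.62% and 3.97% of all genes tested. With 1 tumor left out, 8 (without vehicle tumor 3) to 18 (without liraglutide tumor 1) were lower. The lower genes were *Hk2*, *Aldoa*, *Tpi1*, *Gapdh*, *Pgk1*, *Pgam1*, *Eno1*, *Ldha*, *Adm*, *Gbe1*, *Hmox1*, *Vldlr* and *Mif*, with log2 fold changes from -1.43 for *Vldlr* to -0.38 for *Aldoa*. *Pgk1*, which makes ATP in glycolysis, was at 681, 737, 772, 589 and 672 CPM in vehicle and at 552, 519, 377, 481 and 319 CPM in liraglutide tumors. All 5 liraglutide tumors lay below all 5 vehicle tumors, as for *Higd1a*, and as in 0.888% of all genes tested. Its log2 fold change was -0.62 (SE 0.15), the two-sided exact permutation p 0.00794, and the adjusted p 0.482 with edgeR and 0.0414 with DESeq2, within a range of 0.0414 to 0.900 over the alternatives.

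Components of the HIF machinery itself showed no shared direction. Of 13 listed, 12 were tested, of which 7 had a negative and 5 a positive difference, 1 was lower and 3 were higher at an unadjusted p under 0.05, against 5.62% and 3.97% of all genes tested. With 1 tumor left out the counts were 0 to 2 lower and 0 to 3 higher, and both were 0 without vehicle tumor 3. Of 10 such fits, the p was 0.05 or more in 7 for *Ep300*, 6 for *Egln2*, and 4 each for *Crebbp* and *Eloc*. The lower gene was *Eloc*, a subunit of the Vhl ubiquitin ligase, at -0.29. The higher genes were the hydroxylase *Egln2* at 0.39 and the coactivators *Crebbp* at 0.21 and *Ep300* at 0.18. *Crebbp* and *Ep300* were higher in every liraglutide tumor than in any vehicle tumor, as were 0.607% of all genes tested (two-sided exact permutation p 0.00794 for each gene). Means were 244 ± 15.9 and 282 ± 16.8 CPM for *Crebbp* and 249 ± 13.5 and 282 ± 7.02 CPM for *Ep300* (SD, n = 5 each). *Arnt*, the partner of the alpha subunits, was at 0.093 (unadjusted edgeR p 0.413), and the asparaginyl hydroxylase *Hif1an* at -0.15 (unadjusted edgeR p 0.289).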

How the data were processed

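RNA sequencing of 10 tumors was used, 5 per group, grouped by the treatment in the labels and numbered as in the sample titles. The authors mapped read pairs with Bowtie 1.0.1 and TopHat 2.0.13 and summed reads over genes with featureCounts, leaving out some samples at their quality check. The deposited values are raw counts, whole numbers with no scaling. The methods name GRCm39 as the genome, whereas the submitters' processing notes list mm10 and GRCh38, so the counted genes are given no coordinates, and the promoter windows carry those of their own RefSeq build. The annotation release, the strand setting and the treatment of multi-mapping reads were not given in the sources used here. The libraries mark strand, but without the setting reads of overlapping antisense genes cannot be told apart. The labels used here name no batch. The engineered alleles of the cell line are not reported here.

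Ensembl identifiers, stripped of their version, were looked up in GENCODE M39, which gave symbols for 51731 of 55401 genes (93.4%) and merged exon lengths. Genes were filtered with filterByExpr (17464 kept), scaled with TMM factors and compared by treatment with edgeR's quasi-likelihood test (edgeR 4.0.16, R 4.3.3), with Benjamini-Hochberg adjustment over all genes tested. DESeq2 1.42.0, which the study used, was an alternative. CPM were taken on the TMM library size, and log2 CPM with a prior count of 2. Single members were also compared by the two-sided exact permutation test of mean log2 CPM, whose smallest p for 5 against 5 is 0.00794. The lists were described by counts and medians with no test. Other alternatives were DESeq2's size factors or library size alone in edgeR, no filter but a single count (at least 1), a filter at 10 counts in each tumor, the tumor number as a block, and leaving out each tumor. The scripts were checked on simulated counts.

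Values in every tumor are given for *Higd1a*, the regulators, *Vegfa*, *Car9*, *Slc2a1* and each member with an unadjusted p under 0.05 or no overlap, and for *Pfkfb4*, *Ankrd37* and *Pgk1*, chosen after their values were seen. Other members are given by mean, difference or range, and of other pathway genes those with an unadjusted p under 0.05 are named. The members and lists were chosen with earlier results of these data known. Promoter sequences came from RefSeq (GRCm38.p6), and the 250 bases before each start were searched on both strands.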

Additional observations from a re-analysis of the deposited data

Results flagged for a closer look

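In 4 of the 68 sets of 5 tumors (34 genes in 2 groups), 1 tumor stood apart from the other 4 by Dixon's criterion, which chance alone meets in about 1 of 20 sets. *Car9* stood apart in both groups, at 155 CPM in vehicle tumor 5 (next highest 36.7) and 72.3 CPM in liraglutide tumor 4 (next highest 23.7). *Bnip3l* was at 244 CPM in liraglutide tumor 1 (next highest 173), the tumor that was highest of its group for 22 of the 34 genes. *Plod1* was at 59.2 CPM in liraglutide tumor 5 (next lowest 65.6).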

How the results depend on the processing

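The number of genes with an adjusted p under 0.05 was 0 in edgeR under every alternative and 52 with DESeq2, which also put *Higd1a* past that threshold. Members lower at an unadjusted p under 0.05 numbered between 8 (library size alone) and 11 (all genes with at least 1 count) under the 6 alternatives that kept every tumor, and 3 to 14 with 1 tumor left out. With 1 tumor left out, members higher numbered 0 to 1, members with no overlap 1 to 2 (*Higd1a* each time, with *Slc2a1* or *Bnip3*), and members with an exact p under 0.05 from 2 to 7. The members' median log2 fold change ran from -0.38 to -0.32 with every tumor kept and from -0.54 to -0.24 with 1 left out. Of 530 member values with an adjusted p under the alternatives, 517 kept their direction and their side of the threshold, and for 12 members DESeq2 gave no adjusted p. As edgeR called 0 genes under every alternative, the side of the threshold moved with DESeq2 alone, for *Higd1a*. The count of 517 therefore mainly describes direction. No rescaling turned a sign. Only leaving out a tumor did, for 5 members: *Car9* (-1.42 to 0.21), *Slc2a3* (-0.11 to 0.21), *Ppp1r3c* (-0.17 to 0.56), *Stc2* (-0.067 to 0.52) and *Zfp395* (-0.092 to 0.34). The cause was not tested.

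The tumor numbers are shared by the groups, but deviations of same-numbered tumors correlated at 0.35, 0.57, -0.075, 0.068 and 0.39 for numbers 1 to 5, so the numbers were not taken to pair the tumors, and tumor 2 alone correlated best with its own number. With the number as a replicate block, 0 genes passed the adjusted threshold, 10 members were lower and 1 was higher (*Epas1*, unadjusted p 0.00939), and the median was -0.35. Among the lower members, *Ero1a* (unadjusted p 0.0695) and *Ndrg1* (0.0596) then missed the threshold, and *Egln1* (0.0390) and *Ankrd37* (0.0424) passed it. The stricter filter tested 32 members.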
